A study of Nasonia vitripennis with 9 samples.

Results

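The genes examined here encode subunits of respiratory complex I in the jewel wasp *Nasonia vitripennis*, a parasitoid that develops on fly hosts. They were taken as every gene row whose symbol begins with Nduf, which gave 31 of 15418 gene rows. Of these, 30 are subunits of the complex. Ndufa4 carries the same prefix but is now held to belong to cytochrome c oxidase. Its values are described apart, but it enters the sums, counts and medians over the 31 members. All 31 passed the filter on low counts and were among the 11665 genes tested.

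Complex I (NADH:ubiquinone oxidoreductase) is the entry point of the mitochondrial respiratory chain. It takes electrons from NADH, passes them along a row of iron-sulfur clusters to ubiquinone, and pumps protons across the inner membrane. Its peripheral arm reaches into the matrix and carries the flavin and the clusters, while its membrane arm holds the proton pumps. Core subunits do the chemistry and are shared with bacteria, and accessory subunits surround them. The roles given below were worked out mainly in cattle and humans. The membrane-arm core subunits are encoded by mitochondrial DNA in animals and were not analysed here. No row matched the symbols Ndufv3, Ndufa1, Ndufa3, Ndufa11, Ndufb2, Ndufb11 or Ndufc1, or the Ndufaf symbols of assembly factors.

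RNA was sequenced from whole male wasps of the laboratory strain AsymCX, which had been cured of *Wolbachia*, in 3 groups of 3 pools with 5 individuals each. The dsGFP group had been injected as second-instar larvae, about 3 days after egg laying, with a solution of double-stranded RNA (4 µg/µl) whose sequence matches green fluorescent protein, coloured with a red dye. The water group received dyed water at the same stage, and the uninjected group received no injection. Injected larvae were placed on 1% agarose and then returned to hosts, 6 to 8 to a host. Pools were collected 5 to 6 days after injection. The labels give the stage as white pupae, but also call the tissue whole larvae, and give no separate age or handling for the uninjected animals. The green fluorescent protein sequence has no intended target in the wasp, and the double-stranded RNA serves as a control for RNA interference experiments. The series title names off-target effects as the subject. Whether pools within a group trace to separate cultures is not stated in the labels, and the p-values therefore speak for pool-to-pool spread, which may be technical.

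Gene totals were 34754342 ± 1093928 in dsGFP, 36729166 ± 487110 in water and 42464193 ± 3644501 counts in uninjected libraries (SD, n = 3 each). The members were well covered, at 741 to 13077 counts per member and library. Of all reads, 5.56 to 5.86% were unmapped in dsGFP, 4.94 to 5.84% in water and 2.63 to 3.34% in uninjected libraries. Values below are gene counts scaled to a common library total, in the unit CPM, after edgeR's TMM factors were applied. The factors ran from 0.896 in dsGFP 2 to 1.13 in uninjected 3. CPM values are not divided by transcript length, because no lengths were at hand, so the levels of different subunits are not ranked against each other.

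No complex I gene passed the test for a change with injection or with double-stranded RNA. With edgeR's quasi-likelihood test, 0 of 31 members had an adjusted p under 0.05 in any comparison, and that count was also 0 with DESeq2 and with limma-voom. Tested for any difference among the 3 groups, 0 members passed against 2.04% of all genes called. Differences were small and mostly downward in injected animals, but the direction leaned in part on single pools. Between all injected and uninjected pools 31 of 31 members were lower, and 16 of 31 when uninjected 3 was left out. The median log2 fold change of the 31 members was -0.09 between dsGFP and water, -0.05 between water and uninjected and -0.15 between dsGFP and uninjected pools. Over all 11665 genes tested the medians were 0.01, 0.00 and 0.01. In every pairwise comparison all 31 members had unadjusted 95% confidence intervals that stayed inside 1.5-fold.

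**Figure D1:**
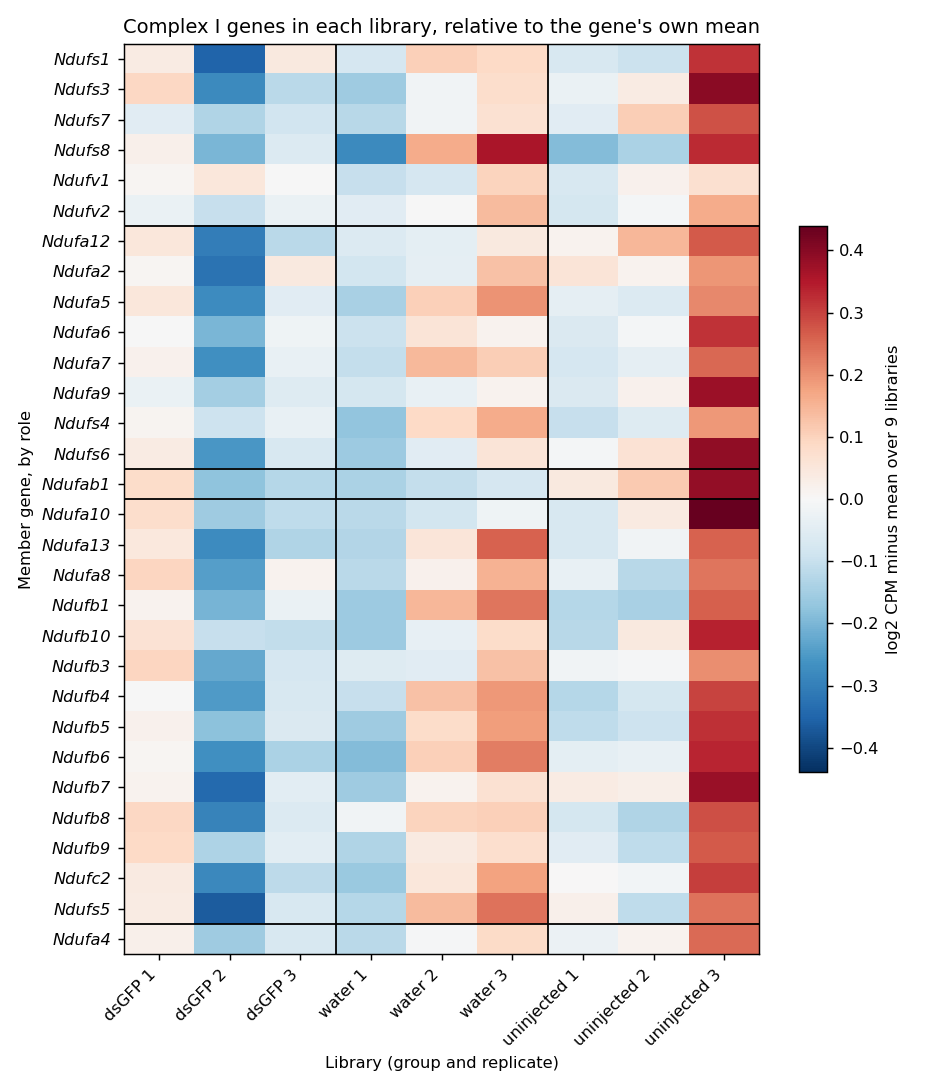
Level of each complex I gene in each library as log2 CPM minus the gene's own mean over the 9 libraries (colour), with genes in rows by role and libraries in columns. Uninjected 3 is the highest library for 27 of 31 genes and dsGFP 2 the lowest for 26 of 31. Among the genes shown, Ndufv1 and Ndufs8 follow neither. The plot shows 30 of the 31 genes.

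The libraries differed more from each other within groups than the groups did. Transcripts were summed over the 31 members, Ndufa4 included. The sums were 3116, 2659 and 2931 CPM in dsGFP pools, 2812, 3112 and 3289 CPM in water pools and 2951, 3010.0 and 3679 CPM in uninjected pools. All 3 groups overlapped. The sums averaged 2902 ± 230.0 CPM with dsGFP, 3071 ± 241 CPM in water pools and 3213 ± 404 CPM in uninjected pools (SD, n = 3 each). The mean sum with dsGFP was 0.945 of that with water and 0.903 of that in uninjected pools, and with gene totals in place of TMM scaling these ratios were 0.895 and 0.832. In whole animals, a lower sum from fewer mitochondria-rich cells and from less transcript per cell cannot be told apart.

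At the ends of this range stood uninjected 3 and dsGFP 2. In uninjected 3 the members had a median of 1.24 times their mean in the other uninjected libraries, beside 1.23 for genes of complexes II to V and 0.990 over all genes. In dsGFP 2 the median was 0.868 of the other dsGFP libraries, beside 0.874 for complexes II to V and 0.990 over all genes. The highest of the 9 values was in uninjected 3 for 27 of 31 members, where 24.9% of all genes had theirs. Among the others, Ndufs5, Ndufs8 and Ndufv1 were highest in water 3. The lowest value was in dsGFP 2 for 26 of 31 members, where 21.3% of all genes had theirs. The 2 libraries were also extreme in the other direction for other genes, with dsGFP 2 highest for 21.4% and uninjected 3 lowest for 26.5% of all genes. Within the water group, water 1 was the lowest library for 30 of 31 members, and the share of all genes was not counted. The members' median in water 1 was 0.881 of the other water libraries, beside 0.920 for complexes II to V and 0.990 over all genes.

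Some other features of the libraries had their ends at the same pools. Reads on rRNA genes, a sign of how well messenger RNA was selected, were highest in dsGFP 2 at 43.8 CPM and lowest in uninjected 3 at 5.31 CPM. By group they ran from 29.0 to 43.8 CPM with dsGFP, 16.1 to 34.8 CPM in water pools and 5.31 to 13.3 CPM in uninjected pools. Of 7 muscle symbols looked for, 3 matched (Tm1, Tm2 and Zasp66), and their summed level was 853 to 918 CPM with dsGFP, 779 to 931 CPM in water pools and 772 to 883 CPM in uninjected pools. Tm2, a tropomyosin, was lowest in dsGFP 2 at 14.0 CPM and highest in uninjected 3 at 67.8 CPM, while the far more abundant tropomyosin Tm1 ran the other way, highest in dsGFP 2 at 898 CPM and lowest in uninjected 3 at 686 CPM. The 14 matched nervous system genes summed to 176 to 229 CPM with dsGFP, 225 to 259.7 CPM in water pools and 244 to 317 CPM in uninjected pools, with nAChRa10 at 0.270 CPM or less in every library. The 3 matched hexamerin genes, storage proteins of the fat body, summed to 2036 to 3088 CPM with dsGFP, 2471 to 4231 CPM in water pools and 3265 to 4451 CPM in uninjected pools. Their sum was carried by Hex70b, which was lowest in dsGFP 2 at 1997 CPM and highest in uninjected 3 at 4439 CPM. Hex109 and Hex83 ran the other way, at 25.7 and 14.1 CPM in dsGFP 2, their highest library, and 6.47 and 4.59 CPM in uninjected 3, their lowest. The part of these features in the complex I values was not tested.

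**Figure D2:**
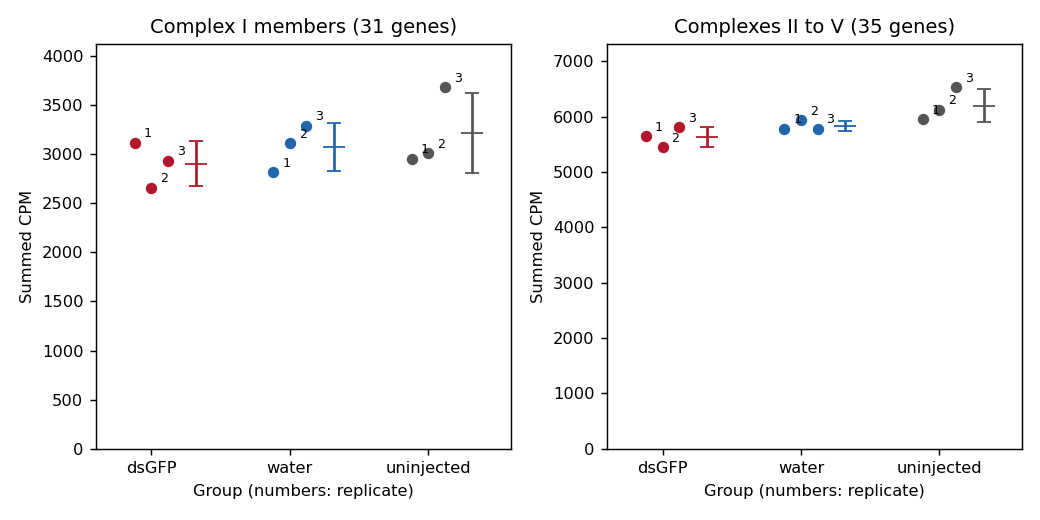
Summed CPM of the 31 complex I members (left) and of 35 genes taken by symbol for complexes II to V (right) in each library, with group means and SD beside the points and axes from 0. The complex I sums of the 3 groups overlap, with uninjected 3 highest at 3679 CPM and dsGFP 2 lowest at 2659 CPM.

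The comparison of dsGFP with water varies the double-stranded RNA and holds the injection constant. Of the 31 members, 27 were lower and 4 higher with dsGFP, and 48.1% of all genes were lower. Among the exceptions were Ndufv1 (log2 fold change 0.04), Ndufab1 (0.04) and Ndufa10 (0.01). By edgeR 0 members passed, against a background of 0.0% of all genes called, and 0 members had an unadjusted p under 0.05, against 6.09% of all genes. In 0 members did the dsGFP and water values fail to overlap, against 7.57% of all genes separated with dsGFP lower and 4.77% with dsGFP higher.

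The members of smallest p in this comparison were Ndufs5, Ndufa13 and Ndufb4. All are accessory subunits of the membrane arm, a role held by 14 of the 31 members. Ndufs5, which carries paired cysteines and is folded in the space between the membranes, had 93.7, 71.1 and 87.2 CPM in dsGFP pools and 84.0, 101 and 108 CPM in water pools. This gave a log2 difference of -0.22 (SE 0.14, 95% interval -0.53 to 0.09, edgeR adjusted p = 0.923). The groups overlapped, with dsGFP 2 below and water 3 above the rest. Ndufa13, known in human cells as GRIM-19, had 169, 135 and 149 CPM in dsGFP pools and 149.9, 169.9 and 196 CPM in water pools (log2 fold change -0.18, SE 0.14, edgeR adjusted p = 0.943). In uninjected pools Ndufa13 had 156, 162 and 196 CPM. Ndufb4 had 90.7, 76.4 and 86.5 CPM in dsGFP pools and 84.6, 99.1 and 104 CPM in water pools (log2 fold change -0.18, SE 0.13, edgeR adjusted p = 0.943). In both genes dsGFP 1 lay above the lowest water library, so the groups overlapped.

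How far these values bound a difference is shown by the intervals. All 31 members had their whole 95% interval within 1.5-fold between dsGFP and water, against 64.3% of all genes. The half-width of the intervals was 0.21 to 0.39 on the log2 scale, with a median of 0.28 for the members and 0.33 for all genes. The lowest bound belonged to Ndufs8, at -0.57. Leaving out dsGFP 1 or water 1 reduced the members within 1.5-fold to 27. Without dsGFP 2 the median log2 fold change was -0.01 and 19 members were lower, and without water 3 it was -0.03 with 23 lower.

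**Figure D3:**
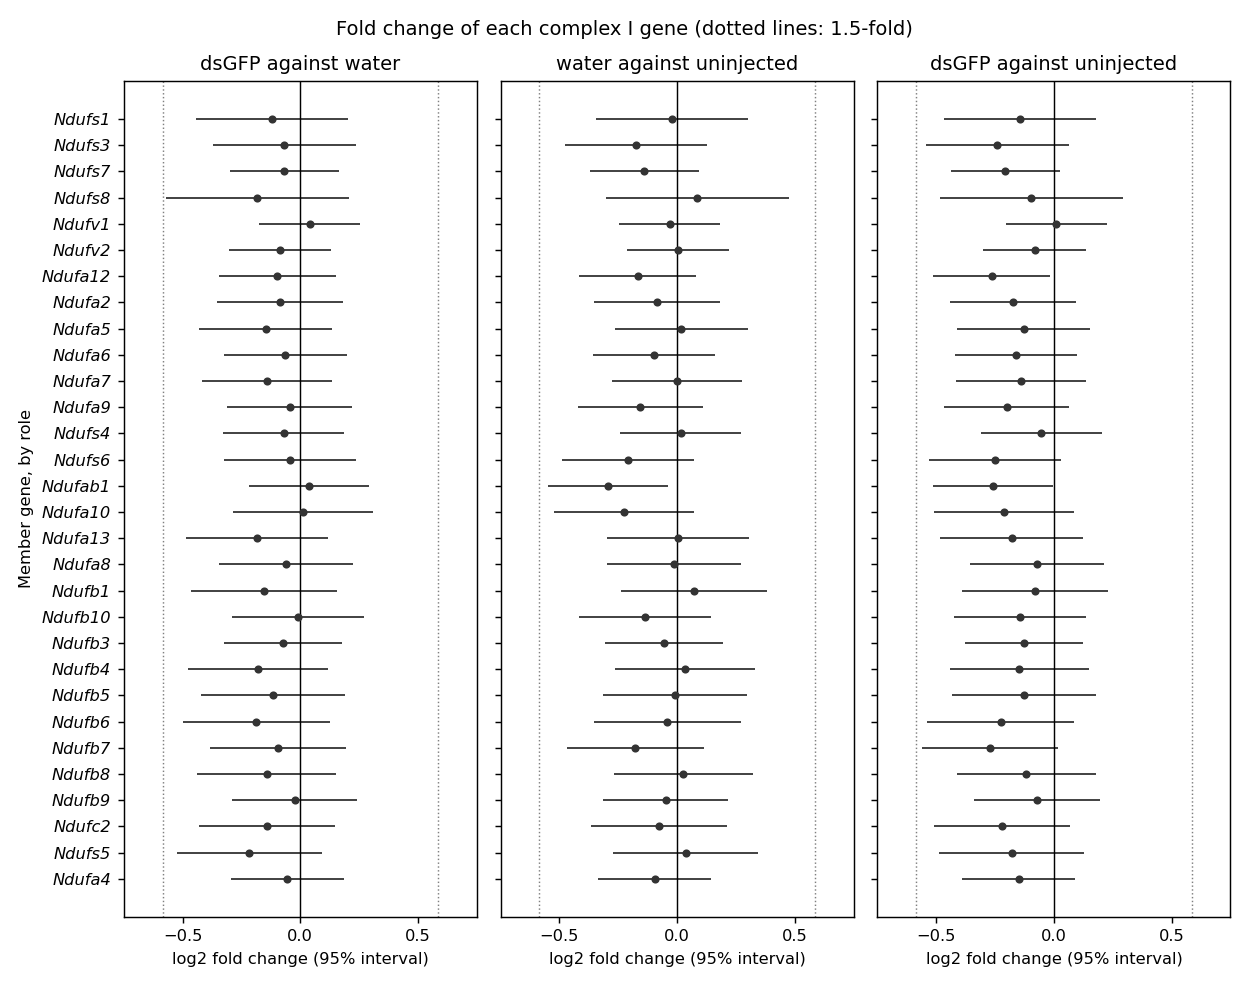
Fold change of each complex I gene (log2, points) with its unadjusted 95% interval (bars) derived from edgeR's test in 3 comparisons, with 30 of the 31 genes in rows by role and dotted lines at 1.5-fold. Every interval lies inside the dotted lines, and between dsGFP and uninjected pools every point but that of Ndufv1 lies below 0.

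Water-injected and uninjected pools differ by the injection with its dye and handling. They also differ in the unmapped and rRNA reads given above, and the labels give no separate age for uninjected animals. Here 22 members were lower and 9 higher with water, while 49.4% of all genes were lower. By edgeR 0 members passed, against 0.00857% of all genes called. Ndufab1 alone had an unadjusted p under 0.05, against 5.68% of all genes. It encodes the mitochondrial acyl carrier protein, which sits in both arms of the complex and also serves mitochondrial fatty acid synthesis.

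Ndufab1 had 119, 122 and 125 CPM in water pools and 135, 142 and 171 CPM in uninjected pools. It was the only member whose water and uninjected ranges were apart, where 5.79% of all genes were separated with water lower and 2.85% with water higher. The difference was -0.29 on the log2 scale (SE 0.12, 95% interval -0.55 to -0.04), and edgeR's adjusted p of 0.768 did not pass. With dsGFP its values were 139, 116 and 120.1 CPM, which overlapped those of uninjected pools.

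The next members by p were Ndufa10 and Ndufs6. Ndufa10, an accessory subunit of the membrane arm related to nucleoside kinases, had 129, 133 and 139 CPM in water pools and 134, 144 and 190.3 CPM in uninjected pools (log2 fold change -0.22, SE 0.13, edgeR adjusted p = 0.999). Ndufs6, a zinc-binding accessory subunit of the peripheral arm, had 44.4, 47.9 and 51.6 CPM in water pools and 49.4, 51.8 and 65.1 CPM in uninjected pools (log2 fold change -0.21, SE 0.13, edgeR adjusted p = 0.999). For both, the groups overlapped and uninjected 3 stood above all other libraries.

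The direction of this comparison depended on single pools. Without uninjected 3 the median log2 fold change was 0.02 with 13 members lower, and without water 1 it was 0.01 with 14 lower. Without water 3, uninjected 1 or uninjected 2 it was -0.10, -0.09 and -0.11. All 31 members had intervals within 1.5-fold, against 66.9% of all genes.

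The dsGFP and uninjected pools differ by both injection and double-stranded RNA, and also in the unmapped and rRNA reads given above. Whether they also differ in age is not given in the labels. Between these groups 30 of 31 members were lower with dsGFP, and 48.8% of all genes were lower. The exception was Ndufv1, at a log2 fold change of 0.01. By edgeR 0 members passed, against 4.55% of all genes called, 4.11% called lower and 0.437% called higher. An unadjusted p under 0.05 was found for 2 members, Ndufa12 and Ndufab1, against 18.7% of all genes. This comparison shares the uninjected libraries with that of water and the dsGFP libraries with that of dsGFP against water, so the members' fold changes in the 3 are not independent.

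Ndufa12, an accessory subunit of the peripheral arm, had 81.6, 63.9 and 72.8 CPM with dsGFP and 79.9, 87.3 and 95.2 CPM in uninjected pools. The difference came to -0.27 on the log2 scale (SE 0.11, 95% interval -0.51 to -0.02, edgeR adjusted p = 0.240). Only dsGFP 1 reached into the uninjected range. For Ndufab1, with the values given above, the log2 difference was -0.26 (SE 0.12, edgeR adjusted p = 0.263). Ndufb7, a membrane-arm subunit with paired cysteines, had 53.6, 41.9 and 51.3 CPM with dsGFP and 54.3, 54.0 and 68.9 CPM in uninjected pools (log2 fold change -0.27, SE 0.13, edgeR adjusted p = 0.302). It was the only member whose dsGFP and uninjected values did not overlap, where 13.1% of all genes were separated with dsGFP lower and 8.79% with dsGFP higher. The highest dsGFP value, 53.6 CPM, and the lowest uninjected value, 54.0 CPM, were close.

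All 31 members had intervals within 1.5-fold between dsGFP and uninjected pools, against 57.3% of all genes, but this count was 20 without dsGFP 1, 21 without uninjected 1 and 22 without uninjected 2. The median log2 fold change of -0.15 was -0.06 without uninjected 3, with 23 members lower, and -0.07 without dsGFP 2, with 30 lower. Without dsGFP 1, uninjected 1 or uninjected 2 it was -0.21, -0.20 and -0.21. Between all 6 injected pools and the uninjected pools, 31 of 31 members were lower with injection (median log2 fold change -0.09), against 48.9% of all genes. Here 0 members passed, against 3.04% of all genes called, 2 members (Ndufab1 and Ndufa12) had an unadjusted p under 0.05, against 14.2%, and 31 had intervals within 1.5-fold, against 66.5%. Without uninjected 3 the number lower was 16 of 31 and the median -0.02.

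By role, the 7 core subunits of the peripheral arm summed to 759.8 ± 38.6 CPM with dsGFP, 782 ± 48.5 CPM in water pools and 812 ± 72.1 CPM in uninjected pools (SD, n = 3 each). Between them these subunits hold the redox centres. The 8 accessory subunits of that arm summed to 575 ± 48.6 CPM with dsGFP, 613 ± 42.6 CPM in water pools and 648 ± 82.1 CPM in uninjected pools. The 14 accessory subunits of the membrane arm summed to 1313 ± 127 CPM with dsGFP, 1419.5 ± 138 CPM in water pools and 1459.8 ± 216 CPM in uninjected pools (SD, n = 3 each). In each role the groups overlapped, and the median log2 fold changes between dsGFP and uninjected pools were -0.10 for the core, -0.17 for the accessory peripheral and -0.15 for the accessory membrane subunits.

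Within the core of the peripheral arm, Ndufs1, the largest subunit of the complex and carrier of several iron-sulfur clusters, had 223, 171 and 224 CPM with dsGFP, 207, 234 and 232 CPM in water pools and 208, 204 and 271 CPM in uninjected pools. It followed the common pattern, with dsGFP 2 lowest and uninjected 3 highest. Ndufs3 and Ndufs7, of which Ndufs7 holds the last cluster before ubiquinone, ran from 54.3 to 86.8 and from 59.6 to 79.2 CPM over the 9 libraries with the same lowest and highest library. Ndufv2, which carries a cluster next to the flavin, ran from 55.2 to 66.3 CPM.

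Among accessory subunits of the peripheral arm, Ndufa9, related to short-chain dehydrogenases, had 136, 125 and 133 CPM with dsGFP, 131, 135 and 139.9 CPM in water pools and 132, 140.3 and 179.9 CPM in uninjected pools. Ndufa7 had 115, 93.8 and 111 CPM with dsGFP, 105, 125 and 122 CPM in water pools and 107, 109.9 and 135 CPM in uninjected pools. The Ndufa7 means of water and uninjected pools were nearly equal, at 117.2 and 117.3 CPM (95% interval of the log2 difference -0.28 to 0.28). Both genes overlapped across all groups. Ndufa2, a subunit with a thioredoxin-like fold, ran from 24.4 to 34.99 CPM, Ndufa5 from 75.6 to 106 CPM and Ndufs4 from 55.5 to 71.5 CPM. Ndufa6, which binds the acyl carrier protein in the peripheral arm, ran from 38.4 to 54.9 CPM.

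In the membrane arm, Ndufb9, which binds the acyl carrier protein there, ran from 59.8 to 79.0 CPM, and its mean was 64.4 ± 5.05 CPM with dsGFP, 65.5 ± 4.89 CPM in water pools and 67.7 ± 9.86 CPM in uninjected pools (SD, n = 3 each). Ndufa8 and Ndufb10, subunits with paired cysteines like Ndufs5 and Ndufb7, ran from 90.2 to 125 and from 85.9 to 121 CPM. For the other membrane-arm subunits (Ndufb1, Ndufb3, Ndufb5, Ndufb6, Ndufb8 and Ndufc2) the groups overlapped in every comparison, and uninjected 3 was the highest library. Ndufa4, the member that is now placed in cytochrome c oxidase, had 138, 122 and 129 CPM with dsGFP, 125, 135 and 144 CPM in water pools and 133, 137 and 161 CPM in uninjected pools. Among all 31 members it kept closest to the mean of the complex I subunits.

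Most members moved together from library to library. The mean log2 CPM of the 30 subunits had an SD of 0.14 over the 9 libraries, and single members an SD of 0.07 to 0.23 with a median of 0.16. After subtraction of each library's complex mean, the median SD of the members was 0.07. Such differences within a library do not depend on how the library was scaled. Ndufa4 had the smallest SD, at 0.03. Ndufs8 and Ndufv1, core subunits of the peripheral arm, were among the members with the largest, at 0.13 each. They were singled out by this spread, so no test is given for them.

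**Figure D4:**
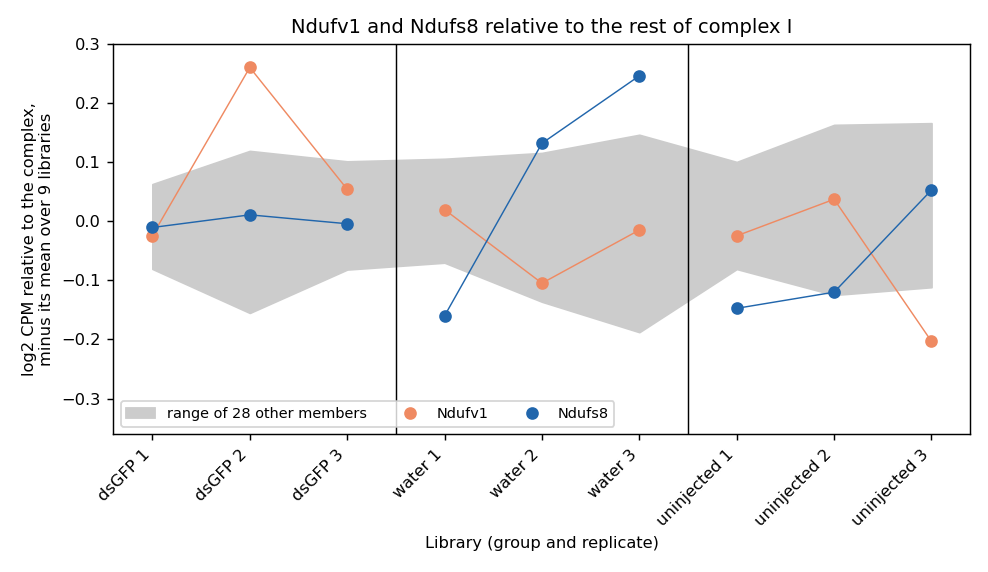
log2 CPM of Ndufv1 and Ndufs8 minus the mean of the 30 subunits in the same library, each centred on its mean over the 9 libraries, with the range of 28 other members in grey and lines joining libraries of a group. Ndufv1 lies above the grey range in dsGFP 2 and below it in uninjected 3, and Ndufs8 lies above it in water 2 and water 3 and below it in water 1 and uninjected 1.

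Ndufv1, which binds NADH and the flavin, was the steadiest member in its own level. It had 178, 183 and 177 CPM with dsGFP, 165, 168 and 189.8 CPM in water pools and 169, 179.7 and 186 CPM in uninjected pools, an SD of 0.07 on the log2 scale. Relative to the complex mean its log2 level was 1.26 in dsGFP 2 and 0.80 in uninjected 3. Ndufs8, a core subunit with iron-sulfur clusters, varied most, at 71.8, 61.6 and 67.8 CPM with dsGFP, 58.3, 79.3 and 90.8 CPM in water pools and 62.0, 64.3 and 88.7 CPM in uninjected pools. The spread lay between libraries of the same group, and the water values spanned those of both other groups.

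Counting could affect a few members. The library preparation described in the labels has no step that marks strand, and reads shared by genes on opposite strands are left out of the count used here. The sum of the strand-specific counts was at most 1.06 times that count, in Ndufb5. The next largest were Ndufa6, Ndufa13, Ndufb1 and Ndufs4, and for the other members it was at most 1.018. Ndufs8 and Ndufv1 were among these others. In the RefSeq annotation of assembly Nvit_psr_1.1, used for neighbours only, the closest pair of members was Ndufb9 and Ndufa4, with 2 other genes between their starts.

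For the other complexes of the chain, 35 genes of complexes II to V were examined, taken by symbol alone. The list was not limited to subunits and holds, for example, the assembly factor Cox15. By edgeR 2 of the 35 genes passed between dsGFP and uninjected pools, both lower. Over all genes, 4.55% were called there and 4.11% called lower. In the other pairwise comparisons 0 of the 35 passed, against 0.0% of all genes for dsGFP against water and 0.00857% for water against uninjected. The 2 that passed were both subunits of cytochrome c oxidase. Cox7a1 was at 8.47 ± 1.37 CPM with dsGFP, against 16.9 ± 1.68 CPM in uninjected pools. Cox6c was at 9.10 ± 1.14 CPM, against 16.4 ± 2.55 CPM (SD, n = 3 each). Their log2 fold changes were -0.998 (SE 0.17, edgeR adjusted p = 0.0106) and -0.85 (SE 0.15, edgeR adjusted p = 0.0113), beyond the -0.27 of the lowest complex I member. The next by p, Cyc1l, had 16.9 ± 2.99 CPM with dsGFP and 24.2 ± 2.64 CPM in uninjected pools and did not pass (edgeR adjusted p = 0.0622). The median log2 fold change of the 35 genes was -0.09 between dsGFP and water, -0.10 between water and uninjected and -0.16 between dsGFP and uninjected pools, beside -0.09, -0.05 and -0.15 for complex I. Their sum was 5637 ± 183 CPM with dsGFP, 5833 ± 86.2 CPM in water pools and 6204 ± 297 CPM in uninjected pools (SD, n = 3 each). Unlike the complex I sums, which include Ndufa4, those of dsGFP (5450 to 5815 CPM) and uninjected pools (5955 to 6532 CPM) did not overlap. No test of this difference between the complexes was made.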

How the data were processed

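Per the labels' protocols, poly(A) RNA was selected and libraries were read from both ends at 150 bp. The authors deposited 1 table of counts per gene for each library, and its rows have the form of STAR's gene counts. The submitters' processing notes list STAR 2.6.1b. The genome build was not given in the sources used here, and no coordinates are printed. Column 2, counted without regard to strand, was used. The counts were not normalized by the authors. Of 15430 rows, 12 named no gene and were left out (0.0518 to 0.0608% of counts). All 31 members matched a symbol in the RefSeq table.

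Genes were kept by filterByExpr (minimum count 10, minimum total 15) and tested with edgeR 4.0.16 (TMM factors, robust glmQLFit, glmQLFTest; R 4.3.3) in a single fit of all 9 libraries. Benjamini-Hochberg adjustment ran over all 11665 genes, with calls at an adjusted p under 0.05. Alternatives used DESeq2 1.42.0 and limma 3.58.1.

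The members and lists were chosen with earlier results of these data known. For the 3 members of smallest p per comparison, values are given in each library of the groups compared. All libraries are shown for Ndufa7, Ndufab1, the member of highest mean CPM per role and those of largest spread relative to the complex. Results for 1 member are not reported here one by one, though it enters the sums, counts and medians. Levels per length, which were planned, could not be computed for want of transcript lengths. No sequences are printed because none were at hand.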

Additional observations from a re-analysis of the deposited data

How the results depend on the processing

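The count of complex I members called was 0 in every comparison under each of the alternatives run: DESeq2 size factors in edgeR, upper-quartile factors, no filter on low counts, DESeq2, limma-voom, the sum of the strand columns, only the groups compared, the replicate block and leaving out each library in turn. Over the pairwise comparisons and injected against uninjected, the smallest adjusted p of a member under these alternatives was 0.128, by DESeq2. The 9 fold changes of the members with the smallest p kept their sign throughout. The median log2 fold change of the members moved by less than the within-group SD of the complex mean (0.14), but for water against uninjected it ran from -0.11 to 0.02 and changed sign without uninjected 3 or water 1. No summed CPM of complex I moved by more than its group's SD. Upper-quartile factors gave medians of -0.12, -0.07 and -0.21 for dsGFP against water, water against uninjected and dsGFP against uninjected, with medians of all genes of -0.03, -0.02 and -0.05. They left 29, 30 and 23 of 31 members with intervals within 1.5-fold.

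The counts of called genes over all genes, which serve as background, were less stable. DESeq2 called 6 genes between dsGFP and water, where edgeR called 0, with 710 at an unadjusted p under 0.05, and limma-voom called 0. DESeq2 also called 46 between water and uninjected (edgeR 1), 939 between dsGFP and uninjected (edgeR 531), 664 between injected and uninjected (edgeR 355) and 682 for any difference (edgeR 238). Limma-voom called 229 between injected and uninjected and 1 for any difference, and a fit of the dsGFP and uninjected libraries alone called 255. With 1 library left out the counts were 1 to 7 for water against uninjected, 134 to 681 for dsGFP against uninjected, 1 to 487 for injected against uninjected and 0 to 384 for any difference. Leaving out any library but uninjected 1 cut the count for any difference to 2 or fewer, and without uninjected 1 it was 384. The cause was not tested.

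The replicate block, with replicate numbers shared by the groups, gave 539 called genes between dsGFP and uninjected and medians of -0.08, -0.04 and -0.14 for the members. Same-numbered libraries deviated together in some pairs only (r of -0.33 to 0.43 across genes), and not every library correlated best with its own number, so the numbers were not taken to pair the pools. The order of subunits by level per length was not run. The members had 741 to 13077 counts per library; how far depth or the number of pools sets the width of the intervals was not tested.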
